A study of Homo sapiens with 12 samples.

Results

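The genes described here are 48 genes of DNA replication and S phase, taken by symbol from a table of 62703 gene IDs. Each of the 48 symbols matched 1 ID, and all 48 genes passed the filter on low counts that left 21567 genes to test. They cover origin licensing, helicase activation, the sliding clamp and its loader, the replicative polymerases, Okazaki fragment joining, nucleotide supply, chromatin behind the fork, the E2F transcription factors with the kinase genes of S phase entry, and fork checkpoint and repair. The 12 RNA-seq libraries came from H69, a cell line of normal human cholangiocytes, the epithelium of bile ducts. All cells were kept without serum for 6 h and then treated overnight in serum-free medium, in 4 groups of 3 libraries. The groups were vehicle, TGFβ at 10 ng/mL, Aramchol at 30 µM, and both agents together at these doses (the Aramchol dose is stated once for the series). TGFβ is a cytokine that halts the division of many epithelial cells and drives matrix production. Aramchol, in which arachidic acid is joined to a bile acid, inhibits the lipid enzyme stearoyl-CoA desaturase. The comparisons ask what TGFβ did to the replication genes and whether Aramchol altered them, alone or beside TGFβ.

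A cell licenses its origins before S phase: ORC, CDC6 and CDT1 load the ring of MCM2 to MCM7 onto DNA, and geminin later keeps CDT1 from doing so again. CDC45 and the GINS complex turn that ring into a moving helicase, RFC loads the clamp PCNA, and the polymerases copy the strands. Most of these genes are transcribed by E2F factors, which pocket proteins of the retinoblastoma family hold inactive in resting cells. TGFβ is known to raise the kinase inhibitors CDKN2B and CDKN1A, which keep pocket proteins active. H69 cells were immortalised with the viral large T antigen, which binds pocket proteins, so the line is limited as a model of this control.

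Total counts ran from 52279922 to 70339925 per library, and 7.81 to 9.45% of counts were mitochondrially encoded. The labels do not say that replicates were separate cultures, and a p-value here reflects library-to-library spread that may be technical. Libraries numbered 3 stood apart from numbers 1 and 2 of their group. Chi-square per degree of freedom over genes was 11.1 to 37.7 for pairs with a number 3 and 4.16 to 11.4 for pairs of numbers 1 and 2. Counts without the number 3 libraries are given with each comparison. The cholangiocyte keratins KRT7 and KRT8 stood at 275 to 1033 CPM, whereas CFTR, which bile duct cells also express, was under 1 CPM in all 12 libraries. Of 8 hepatocyte markers 5 (ALB among them) were under 1 CPM throughout, as were 4 of 6 leukocyte markers (PTPRC and CD3E among them) and 3 of 6 endothelial markers (CDH5 and VWF among them). The summed levels in vehicle and with TGFβ were 68.6 to 90.9 and 106 to 114 CPM for hepatocyte markers, 28.6 to 35.2 and 24.8 to 28.3 CPM for leukocyte markers, and 8.602 to 13.5 and 7.83 to 10.6 CPM for endothelial markers. With TGFβ 2 hepatocyte markers were called higher and 1 lower, 1 leukocyte marker higher and 1 lower, and 2 endothelial markers higher and 1 lower. The summed level of 8 fibroblast markers was 140 to 175 CPM in vehicle and 376 to 456 CPM with TGFβ. Of these 8 markers 5 were called higher and 1 lower, and DES was under 1 CPM. The summed level of 6 immediate early genes was 98.1 to 109 CPM in vehicle and 292 to 314 CPM with TGFβ, and the part of any of these lists in the results below was not tested.

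Because E2F factors control this set, the 250 bases upstream of each RefSeq start (GRCh38.p14) were searched on both strands for TTTCCCGC, TTTCGCGC, TTTGCCGC and TTTGGCGC. A promoter was on file for 42 of the 48 genes and was missing for MCM4, MCM5, GINS4, E2F8, CCNE2 and CDK2. An E2F word stood in 16 of 42 promoters (38.1%), against 542 of 13051 promoters of tested genes (4.15%) and 761 of 27305 promoters in all (2.79%). The stretches below are the 6 with a match and the smallest p for TGFβ against vehicle. They are written 5′ to 3′ on the gene's strand with the E2F word in capitals. With TGFβ, UHRF1 was called higher and the other genes shown were called lower.
E2F2 (chr1:23531257-23531286, minus strand): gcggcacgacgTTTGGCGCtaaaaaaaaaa
CDT1 (chr16:88803743-88803772, plus strand): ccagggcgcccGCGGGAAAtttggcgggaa
UHRF1 (chr19:4909471-4909500, plus strand): caaatgccgagttttcGCGGGAAAaaaatc
MCM3 (chr6:52284898-52284927, minus strand): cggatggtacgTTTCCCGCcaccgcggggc
RFC3 (chr13:33818083-33818112, plus strand): atttggagctcGCGGGAAAacttgtctctg
E2F1 (chr20:33686393-33686422, minus strand): tttcGCGGCAAAaaggaTTTGGCGCgtaaa

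The first base of the word lay 42 bases before the start in E2F2, 35 in CDT1, 14 in UHRF1, 174 in MCM3 and 55 in RFC3. In E2F1 there were 2 words, the first 33 bases before the start. In the GENCODE v29 annotation other transcripts of CDT1, UHRF1, RFC3 and E2F1 begin upstream, so their stretches overlap an annotated exon, and those of E2F2 and MCM3 do not. The word CCAAT, bound by the factor NF-Y, stood in 23 of 42 promoters (54.8%), against 34.3% of those of tested genes. The CHR word TTTGAA, known from genes of mitosis, stood in 1 of 42, that of RRM1, against 8.88%. A match is a description of the letters and not of a bound site.

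Levels are given as CPM, counts relative to the TMM-scaled library size, and between genes as CPM per kilobase of exon. Per kilobase, PCNA (the clamp) had the highest vehicle level, 330.5 ± 5.94 (SD, n = 3), followed by MCM3 at 129 ± 3.94 and MCM7 at 119.5 ± 11.3. The spreads of MCM3 and MCM7 overlapped. TK1 stood at 90.8 ± 7.49 and FEN1 at 77.4 ± 1.27. At the bottom were E2F2 at 4.74 and POLA2 at 2.17, the regulatory subunit of polymerase α. The sources used here do not give the strand setting of the counting, and reads from genes on the other strand cannot be told apart. In GENCODE v29, exons of 8 members shared over 10% of their length with such a gene: TYMS (46.6%), CCNE2 (37.1%), MCM2, GINS4, CDK2, DUT, GINS3 and RFC5.

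**Figure D1:**
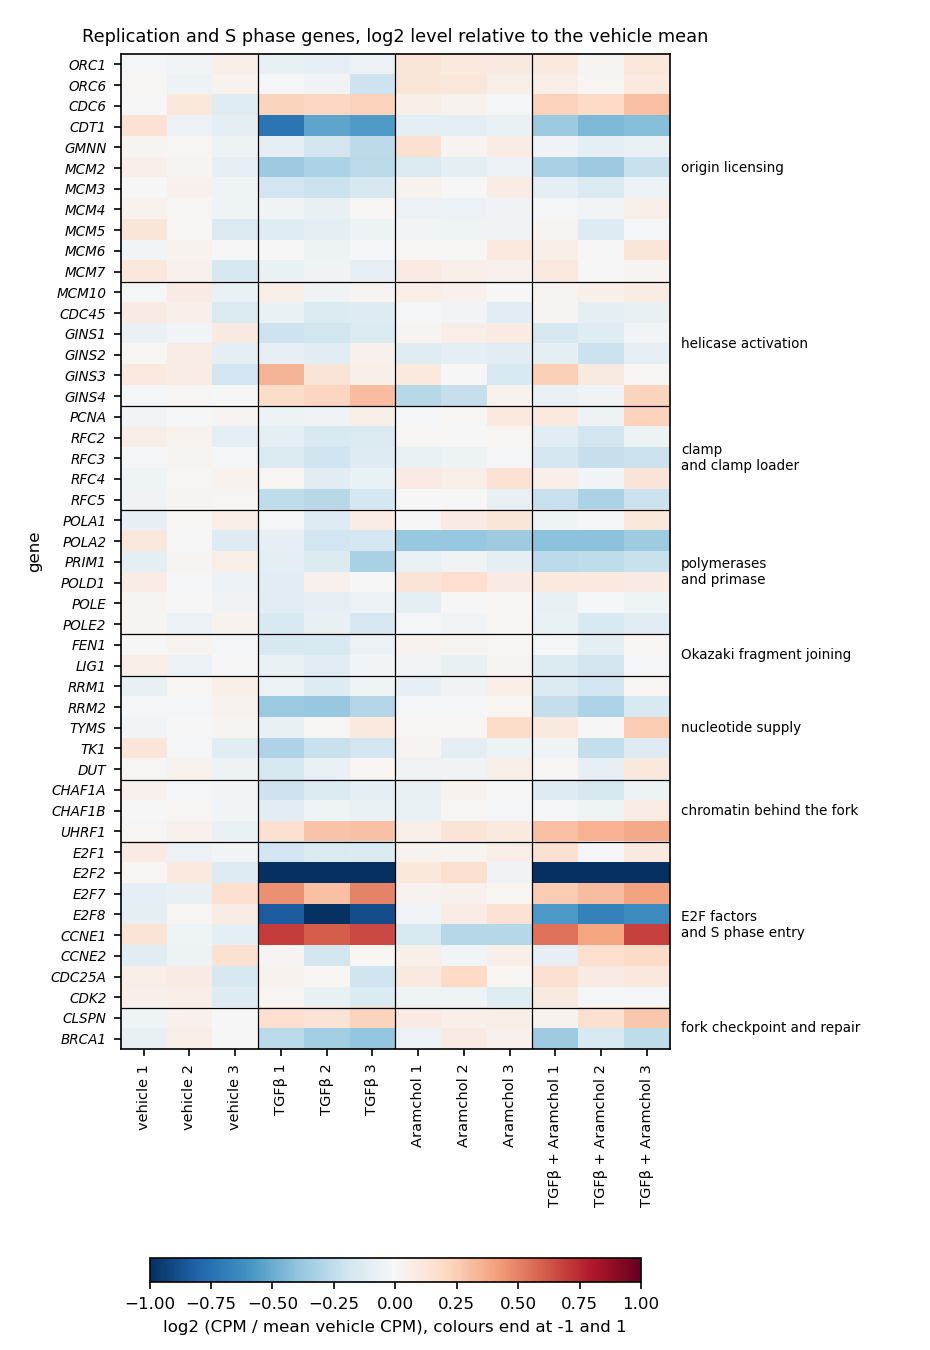
Each row is 1 of the 48 genes, grouped by role, and each column 1 of the 12 libraries. Colour gives the log2 ratio of CPM to the mean vehicle CPM, with colours ending at -1 and 1; E2F2, CDT1 and E2F8 are blue and CCNE1 and E2F7 red in all 6 libraries with TGFβ, and most other rows stay pale.

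TGFβ changed a few of these genes strongly and most of them little. E2F2, an activating E2F factor, fell 3.54-fold, E2F8, a repressing E2F factor, 1.87-fold and the licensing factor CDT1 1.52-fold, whereas CCNE1, the cyclin E1 gene, rose 1.58-fold. In edgeR's quasi-likelihood test with Benjamini-Hochberg adjustment over all tested genes, 6 of 48 members were called higher and 15 lower at an adjusted p under 0.05. The called share of 43.8% stood beside 37% of all tested genes. By direction, 31.2% of members were called lower, against 18.1% of all tested genes, and 12.5% higher, against 18.9%. The median log2 fold change was -0.08 over the members and -0.03 over all tested genes, and 81.2% of members were negative beside 53.3% of all tested genes. The count of lower members was 9 without TGFβ 2, against 14.5% of all genes tested there, and 9 with no filter on low counts, against 8.57%. Of the 48 genes, 40 changed by less than 0.25 on the log2 scale, and for 44 the 95% interval lay within 1.5-fold in either direction. A fall of at least 2-fold was called for 1 member, E2F2, against 4.71% of all tested genes. The groups of libraries did not overlap for 26 members, 20 of them lower and 6 higher, against 46.6% of all tested genes in either direction, 23.7% lower and 23% higher. In bulk RNA, fewer cells in S phase and less RNA per cell cannot be told apart.

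The size of the small changes and the number of calls depend on scaling, and under total counts CLSPN, MCM10 and TYMS changed sign. Scaling by total counts, an alternative added after the data were seen, moved the median of all tested genes by -0.18 and gave 2 members higher and 39 lower, against 11.9 and 35.1% of all tested genes. The rises of CDC6, UHRF1, GINS4 and CLSPN were no longer called under it, while those of CCNE1 and E2F7 and all 15 falls were. Of the 21 calls, 10 were made in all 22 alternatives: CDT1, MCM2, MCM3, RFC5, RRM2, E2F2, E2F7, E2F8, CCNE1 and BRCA1. With only the libraries numbered 1 and 2, 6 members were higher and 19 lower, against 18.7 and 18.1% of all genes tested there.

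**Figure D2:**
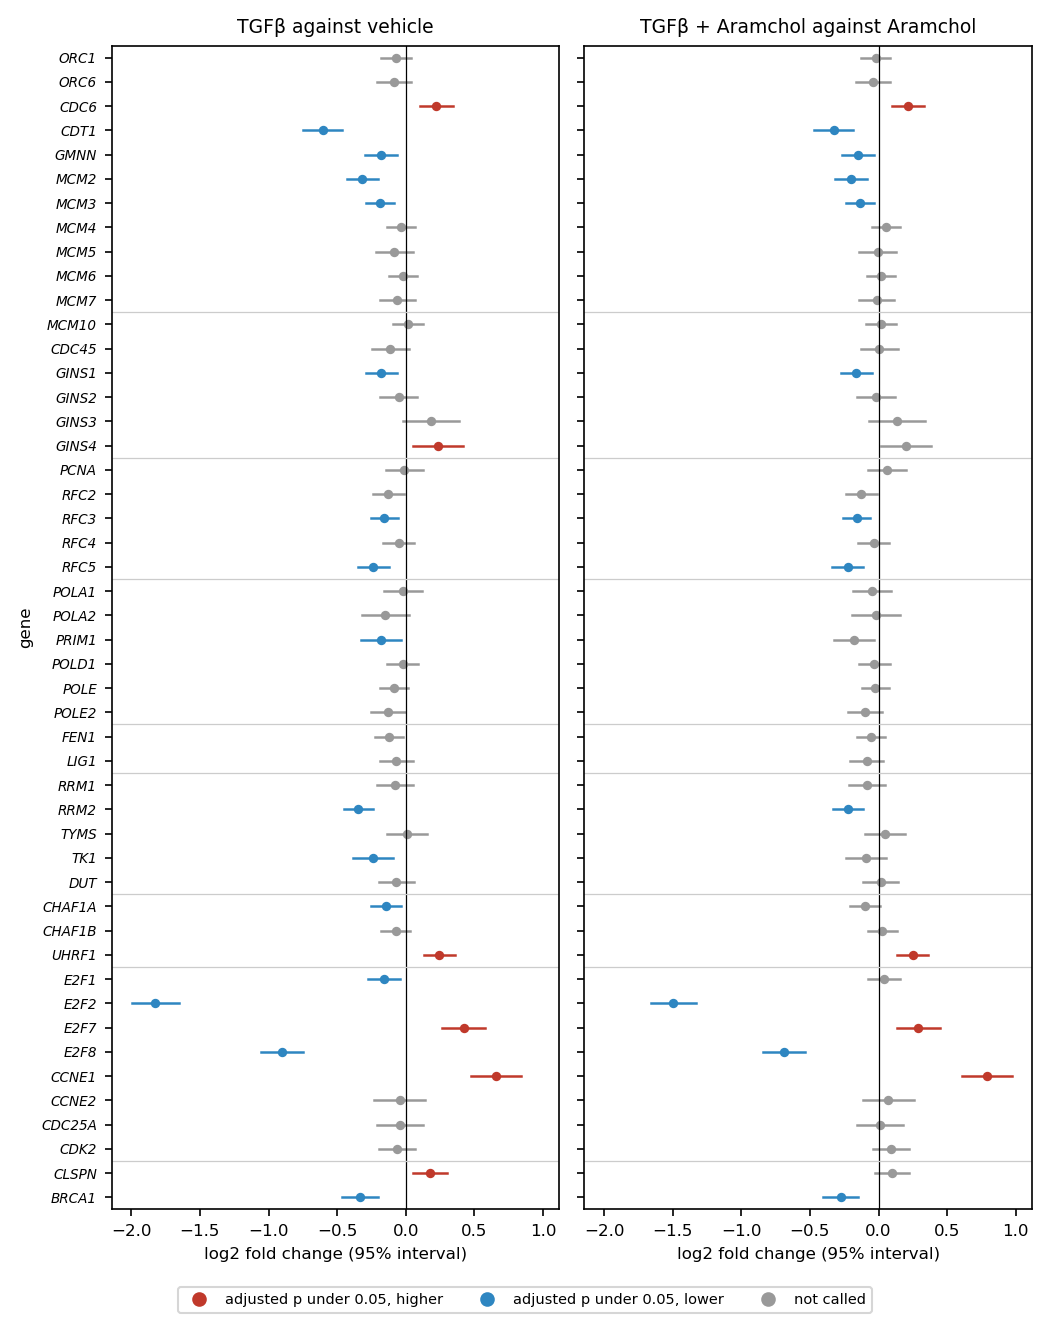
Points are the log2 fold changes of the 48 genes with 95% intervals, for TGFβ against vehicle (left) and for TGFβ + Aramchol against Aramchol (right), and grey lines part the role groups. E2F2, E2F8 and CDT1 lie left of zero and CCNE1 and E2F7 right of zero in both panels, and most intervals lie close to zero.

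Among the 11 origin licensing genes, 4 fell (CDT1, GMNN, MCM2 and MCM3), 1 rose (CDC6) and 6 were not called. That was 36.4% lower and 9.09% higher, beside 18.1 and 18.9% of all tested genes. CDT1, which brings the MCM ring to the origin, stood at 111, 95.9 and 93.6 CPM in vehicle and at 60.3, 69.6 and 67.6 CPM with TGFβ. The TGFβ libraries were all lower than the vehicle libraries, by -0.61 ± 0.07 log2 (SE; edgeR, adjusted p = 3.0e-06). GMNN, the gene of geminin, the inhibitor of CDT1, also fell, by 0.18 from 80.2 ± 2.26 to 70.8 ± 4.19 CPM (SD, n = 3). Its call was lost in 5 alternatives, among them without vehicle 1, vehicle 2, TGFβ 2 or TGFβ 3.

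All 6 subunits of the MCM ring had negative changes, which differed in size, and only MCM2 and MCM3 were called. MCM2 stood at 194, 190.3 and 176 CPM in vehicle and 145, 150.5 and 155 CPM with TGFβ, with no overlap and a change of -0.32 ± 0.05 (edgeR, adjusted p = 2.4e-04). MCM3 fell by 0.19, from 469 ± 14.4 to 412 ± 7.50 CPM. MCM6 had the largest p among the licensing genes, with 189, 197 and 192 CPM in vehicle and 193, 186 and 190.1 CPM with TGFβ, so that the groups overlapped (-0.02 ± 0.05). MCM4, MCM5 and MCM7 were not called, with log2 changes of -0.03, -0.08 and -0.06 and TGFβ means of 361, 188.5 and 502.5 CPM. CDC6, the ATPase that works with ORC to load the ring, went the other way: 127, 136 and 116 CPM in vehicle and 148, 146 and 149 CPM with TGFβ, a rise of 0.22 ± 0.06 (edgeR, adjusted p = 0.0049). ORC1 and ORC6, subunits of the origin recognition complex, were not called, with vehicle means of 38.1 and 45.8 CPM and changes of -0.07 and -0.08.

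In helicase activation, 1 of 6 genes fell, 1 rose and 4 were not called. The 16.7% in each direction was near the 18.1% of all tested genes called lower and the 18.9% called higher. GINS1 and GINS4, which encode partner subunits of the same 4-part complex, moved in opposite directions. GINS1 stood at 95.5, 97.7 and 106 CPM in vehicle and 86.5, 87.7 and 90.2 CPM with TGFβ (-0.18 ± 0.05, edgeR adjusted p = 0.014). GINS4 stood at 37.3, 38.0 and 37.9 CPM in vehicle and 42.9, 43.9 and 46.7 CPM with TGFβ (0.24 ± 0.09, edgeR adjusted p = 0.040). Neither pair of groups overlapped. The GINS1 call was lost in 4 alternatives (no filter, and without vehicle 3, TGFβ 1 or TGFβ 2), and the GINS4 call in 8, among them without any 1 of the 6 vehicle or TGFβ libraries. MCM10, which helps to fire the loaded helicase, had overlapping groups at 79.0, 84.7 and 76.7 and 83.3, 78.1 and 81.7 CPM (0.02 ± 0.05). CDC45, GINS2 and GINS3 were not called either, with changes of -0.11, -0.05 and 0.18 from vehicle means of 57.0, 33.8 and 26.6 CPM.

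Of the clamp and its loader, 2 of 5 genes fell (40%), both loader subunits, against 18.1% of all tested genes. RFC5 stood at 45.3, 47.3 and 46.8 CPM in vehicle and 38.9, 38.3 and 41.0 CPM with TGFβ (-0.24 ± 0.05, edgeR adjusted p = 0.0023). RFC3 stood at 54.9, 56.4 and 55.0 CPM and 50.3, 48.3 and 50.6 CPM (-0.16 ± 0.05, edgeR adjusted p = 0.015). In both, each TGFβ library was lower than each vehicle library. The RFC3 call was lost in 4 alternatives: no filter, the compared groups alone, and without vehicle 2 or TGFβ 2. PCNA, the clamp itself and a common marker of proliferating cells, overlapped fully, at 455, 464 and 472 CPM in vehicle and 449, 449 and 483 CPM with TGFβ. Its change was -0.01 with a 95% interval from -0.15 to 0.13. RFC2 and RFC4 were not called, with changes of -0.13 and -0.05 from 102 and 88.2 CPM.

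Among the polymerases and primase, 1 of 6 genes fell (16.7%), near the 18.1% of all tested genes. PRIM1, the catalytic subunit of primase, stood at 24.0, 26.1 and 26.6 CPM in vehicle and 23.8, 23.3 and 20.4 CPM with TGFβ (-0.18 ± 0.07, edgeR adjusted p = 0.049). Its groups did not overlap, but it was called in 7 of 22 alternatives. POLE2, a subunit of polymerase ε, was lower in each TGFβ library, at 25.22, 26.53 and 24.98 CPM against 28.45, 26.89 and 28.61 CPM, and was not called (-0.13 ± 0.06). POLA1, the catalytic subunit of polymerase α, overlapped between groups at 85.5, 91.5 and 94.9 CPM in vehicle and 89.6, 82.9 and 95.3 CPM with TGFβ. POLD1, POLE and POLA2 were not called, with changes of -0.02, -0.09 and -0.15 and TGFβ means of 98.5, 143 and 10.9 CPM. FEN1, the nuclease that trims Okazaki fragments, was lower in each TGFβ library but missed the threshold, at 169.8, 173 and 167 CPM in vehicle and 152, 153 and 163 CPM with TGFβ (-0.12 ± 0.05, edgeR adjusted p = 0.054). LIG1, the ligase that joins the fragments, changed by -0.07 from 119 CPM and was not called.

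In nucleotide supply, 2 of 5 genes fell (40%), against 18.1% of all tested genes. RRM2, the S phase subunit of ribonucleotide reductase, stood at 325, 325 and 337 CPM in vehicle and 254, 254 and 269 CPM with TGFβ. Each TGFβ library was lower, by -0.35 ± 0.05 on average (edgeR, adjusted p = 5.1e-05). TK1, the cytosolic thymidine kinase, stood at 182, 166 and 155 CPM in vehicle and 135, 143 and 148 CPM with TGFβ (-0.24 ± 0.07, edgeR adjusted p = 0.011). Its call was lost in 2 alternatives, without vehicle 1 and without TGFβ 1. RRM1, the partner of RRM2, changed by -0.08 from 206 CPM and was not called. TYMS, the thymidylate synthase, overlapped at 114, 116 and 119 CPM and 110.1, 117 and 124 CPM, and DUT, which removes dUTP, changed by -0.07 from 148 CPM.

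Behind the fork, UHRF1, which brings the maintenance methyltransferase to newly copied DNA, rose. It stood at 112, 115 and 106 CPM in vehicle and 124, 136 and 137 CPM with TGFβ, with no overlap (0.25 ± 0.05, edgeR adjusted p = 0.0016). CHAF1A, the large subunit of the histone chaperone CAF-1, fell by 0.15 from 113 ± 2.97 to 102 ± 4.22 CPM, a call lost in 8 alternatives. Its partner CHAF1B changed by -0.07 from 74.1 CPM and was not called.

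The 8 E2F and S phase entry genes held the widest range, with 3 lower, 2 higher and 3 not called. The shares were 37.5% lower and 25% higher, against 18.1 and 18.9% of all tested genes. E2F2 stood at 26.3, 27.6 and 23.7 CPM in vehicle and at 7.40, 7.20 and 7.29 CPM with TGFβ. Its change of -1.83 ± 0.08 had an adjusted p of 7.8e-11 in edgeR. E2F8 stood at 24.7, 26.9 and 27.9 CPM in vehicle and 14.9, 13.3 and 14.4 CPM with TGFβ (-0.90 ± 0.07, edgeR adjusted p = 7.9e-08). E2F7, the close relative of E2F8 that also represses E2F targets, went up, from 36.9, 37.7 and 44.2 CPM to 54.3, 48.9 and 55.9 CPM. That rise was 0.42 ± 0.07 (edgeR, adjusted p = 2.5e-04), so the pair of repressors changed in opposite directions. E2F1, another activator, stood at 107, 97.0 and 99.3 CPM in vehicle and 88.7, 91.3 and 92.2 CPM with TGFβ (-0.16 ± 0.05, edgeR adjusted p = 0.032). Its groups did not overlap, and its call was lost in 6 alternatives, among them without vehicle 1 or any 1 of the 3 TGFβ libraries.

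The cyclin E genes also parted. CCNE1 rose from 16.8, 14.8 and 14.3 CPM to 24.8, 23.3 and 24.2 CPM (0.66 ± 0.09, edgeR adjusted p = 1.6e-05). CCNE2 overlapped, at 23.1, 24.0 and 27.8 CPM in vehicle and 25.4, 22.0 and 25.2 CPM with TGFβ (-0.04 ± 0.09). CDK2, the kinase that cyclin E activates, changed by -0.06 from 90.2 CPM, and CDC25A, the phosphatase that releases that kinase, by -0.04 from 33.0 CPM, and neither was called. Of the fork checkpoint and repair genes, BRCA1 fell and CLSPN, which links stalled forks to the kinase CHK1, rose. BRCA1 stood at 122, 134 and 129 CPM in vehicle and 107, 101 and 98.5 CPM with TGFβ (-0.33 ± 0.06, edgeR adjusted p = 4.1e-04). CLSPN went from 71.4 ± 2.30 to 80.6 ± 2.56 CPM (0.18 ± 0.06, edgeR adjusted p = 0.026), and fell to -0.00 under scaling by total counts. Its call was lost in 5 alternatives: total count and upper quartile scaling, and without vehicle 1, TGFβ 1 or TGFβ 3. The promoters with an E2F word belonged to 1 of 5 genes called higher, 5 of 14 called lower and 10 of 23 not called.

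**Figure D3:**
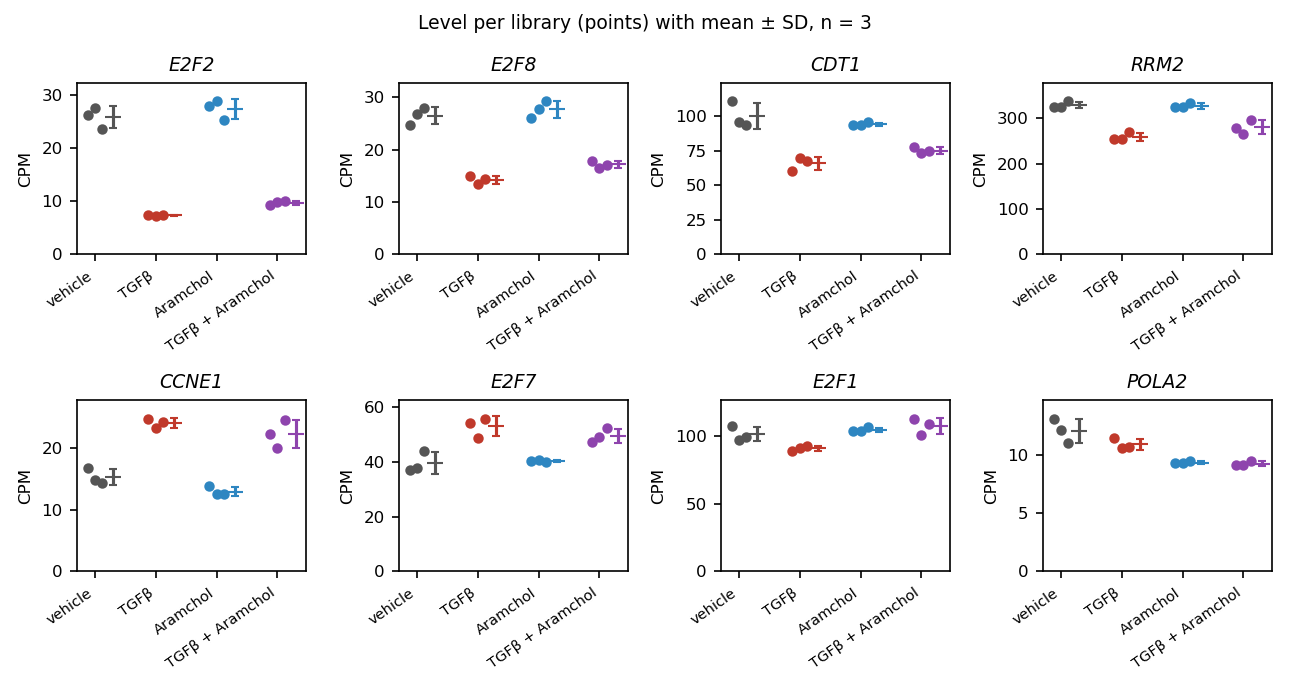
CPM of 8 genes in each of the 12 libraries (points), with the mean and SD of each group of 3 beside them, on axes that start at 0. E2F2, E2F8, CDT1 and RRM2 are lower and CCNE1 and E2F7 higher in both groups with TGFβ, and POLA2 is at 9.07 to 9.46 CPM in the 6 Aramchol libraries, below the 6 others.

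With Aramchol alone, edgeR called 0 members, against 0.357% of all tested genes (0.236% higher, 0.121% lower), and DESeq2 called 1, POLA2. At an unadjusted p under 0.05 there were 3 members (POLA2, CCNE1 and POLD1), against 11.7% of all tested genes. The median log2 fold change was 0.02 over the members and -0.01 over all tested genes. All 48 intervals lay within 1.5-fold in either direction. The groups did not overlap for 9 members, 3 lower and 6 higher, against 16% of all tested genes in either direction, 8.26% lower and 7.74% higher.

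POLA2 came closest to the threshold. It stood at 13.09, 12.07 and 11.03 CPM in vehicle and at 9.26, 9.26 and 9.43 CPM with Aramchol, with no overlap. The change was -0.37 ± 0.08 with an adjusted p of 0.075 in edgeR, and 7 of 22 alternatives called it, among them no filter, without vehicle 3, and a term for libraries numbered 3 (adjusted p = 0.014). With only the libraries numbered 1 and 2, POLA2 and GINS4 were called lower and no member higher, against 3.86 and 3.23% of all genes tested there. POLA1, which encodes the partner subunit, stood at 85.5, 91.5 and 94.9 CPM in vehicle and 90.2, 96.1 and 98.7 CPM with Aramchol. CCNE1 was at 13.8, 12.5 and 12.5 CPM with Aramchol, below its vehicle libraries (-0.24 ± 0.09, edgeR adjusted p = 0.29). E2F2 stood at 27.9, 28.8 and 25.2 CPM, which overlapped with vehicle (0.08 ± 0.07).

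Added to TGFβ, Aramchol raised 2 members, E2F1 and E2F2, in edgeR's test, against 0.89% of all tested genes called higher and 2.25% called in either direction. No member was called lower by edgeR or DESeq2 (background 1.36% in edgeR). At an unadjusted p under 0.05 there were 10 members, against 17.2% of all tested genes, and DESeq2 called 3 higher, E2F8 being the addition. E2F2 went from 7.40, 7.20 and 7.29 CPM with TGFβ to 9.23, 9.86 and 9.98 CPM with both, a rise of 0.41 ± 0.08 (edgeR, adjusted p = 0.018). It stayed below its vehicle libraries of 23.7 to 27.6 CPM. E2F1 went from 88.7, 91.3 and 92.2 CPM to 113, 101 and 108 CPM (0.24 ± 0.05, edgeR adjusted p = 0.032), a range that overlapped with vehicle.

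Neither call held without each library. The E2F2 call was lost when any 1 of the 3 TGFβ libraries or TGFβ + Aramchol 1 or 2 was left out, with adjusted p up to 0.083. The E2F1 call was lost without any 1 of the TGFβ or TGFβ + Aramchol libraries, Aramchol 1 or Aramchol 2, with adjusted p up to 0.16. The count of members called higher was 0 without any 1 of the TGFβ libraries or TGFβ + Aramchol 1 or 2. In those fits 0.0985 to 0.201% of all tested genes were called higher. The count was 1 without Aramchol 1, Aramchol 2 or TGFβ + Aramchol 3 (all genes 0.529, 0.468 and 1.01%), and 3 without vehicle 3 (2.23%). With only the libraries numbered 1 and 2 it was 4 (E2F1, E2F2, E2F8 and CDT1), with 1 member lower (GINS4), against 3.51% of all genes tested there called higher and 5.01% lower. In this comparison all 8 fibroblast markers were negative and 1 was called lower. Their summed level was 376 to 456 CPM with TGFβ and 285 to 332.5 CPM with both, and the part of this list in the results was not tested.

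Most of the other members lay slightly above their TGFβ level. The log2 change was positive for 36 of 48 members, or 75%, beside 49.8% of all tested genes. The median was 0.08 beside -0.00 over all tested genes, and 0.038 without TGFβ + Aramchol 3. In that library 38 of 48 members lay above the mean of their group, and in TGFβ + Aramchol 2, 8 of 48 did, with median deviations of 0.04 and -0.05 log2. Of the 48 changes, 46 were less than 0.25. The 11 licensing genes were positive without exception, from 0.01 to 0.19, and none was called. CDT1 went from 60.3, 69.6 and 67.6 CPM to 77.8, 73.3 and 74.6 CPM, with no overlap (0.19 ± 0.07, edgeR adjusted p = 0.16). E2F8 went to 17.8, 16.6 and 17.1 CPM, above all TGFβ libraries (0.28 ± 0.07, edgeR adjusted p = 0.065). The groups did not overlap for 13 members, 12 higher and 1 lower (POLA2), against 23.6% of all tested genes in either direction, 11.5% higher and 12.2% lower. The comparison of TGFβ with vehicle shares the TGFβ libraries with this one.

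In cells given Aramchol, TGFβ lowered E2F2, E2F8 and CDT1 and raised CCNE1 and E2F7. Against Aramchol alone, TGFβ + Aramchol had 4 members higher and 11 lower in edgeR, 31.2% of members beside 30.2% of all tested genes (16% higher, 14.2% lower). The higher members were CCNE1 (0.79 ± 0.09), E2F7 (0.29), UHRF1 (0.25) and CDC6 (0.21). CCNE1 stood at 22.3, 20.1 and 24.6 CPM with both agents. Among the lower members were E2F2 (-1.49 ± 0.08), E2F8 (-0.69 ± 0.07), CDT1 (-0.33 ± 0.07), BRCA1 (-0.28) and RRM2 (-0.22). The other lower members were GMNN, MCM2, MCM3, GINS1, RFC3 and RFC5, from -0.23 to -0.13. The count of lower members was 7 (14.6%) without Aramchol 3 or TGFβ + Aramchol 2, beside 12.1 and 12.2% of all genes. With only the libraries numbered 1 and 2 there were 5 higher and 12 lower, against 16.5 and 15.1% of all genes tested there. Scaling by total counts gave 1 higher and 25 lower, against 10.8 and 25.4%. The groups did not overlap for 20 members, 14 lower and 6 higher, against 44.6% of all tested genes, 21.8% lower and 22.7% higher.

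The difference between the TGFβ response with and without Aramchol was tested as an interaction. edgeR and DESeq2 called 0 of 48 members, against 0.0139% of all tested genes in edgeR, and 3 members had an unadjusted p under 0.05, against 5.27% of all tested genes. These were E2F2 (0.33 ± 0.11, edgeR adjusted p = 0.85), CDT1 (0.28 ± 0.09, adjusted p = 0.89) and E2F1 (0.20 ± 0.08, adjusted p = 0.92). All 48 intervals lay within 1.5-fold, the highest bound being 0.56 for E2F2. The median was 0.04 over the members and 0.01 over all tested genes. With only the libraries numbered 1 and 2 edgeR called 0 members, against 0.345% of all genes tested there higher and 0.533% lower.

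Against vehicle, cells given both agents had 5 members higher and 10 lower, beside 35.2% of all tested genes called, 18.2% higher and 17% lower. E2F2 was -1.42 ± 0.08, E2F8 -0.62 ± 0.07, CDT1 -0.41 ± 0.07 and CCNE1 0.55 ± 0.09. UHRF1 reached 137, 141 and 145 CPM (0.34 ± 0.05, edgeR adjusted p = 9.2e-05) and was called in all 22 alternatives. POLA2, at 9.07, 9.10 and 9.46 CPM, was called lower (-0.39 ± 0.08, edgeR adjusted p = 0.0015), also in all 22. E2F1 was not called (0.08). With only the libraries numbered 1 and 2, 4 members were higher and 17 lower, against 18.5 and 17.5% of all genes tested there. Total count scaling gave 2 higher and 26 lower (all genes 11.6 and 27.7%), and upper quartile scaling 4 and 18 (15.1 and 20.4%). The groups did not overlap for 18 members, 13 lower and 5 higher, against 44% of all tested genes, 21.7% lower and 22.3% higher.

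The wider pathway was read from 6 lists of 103 other genes, of which 15.5% were called higher with TGFβ and 43.7% lower, beside 18.9 and 18.1% of all tested genes. With only the libraries numbered 1 and 2 these shares were 17.5 and 39.8%, against 18.7 and 18.1% of all genes tested there. Without TGFβ 2, 33% were called lower, against 14.5%. Of 20 genes of mitosis, all 20 fell with TGFβ, with a median of -0.40 beside -0.08 for the 48 replication genes. The same count of 20 was found under TMM, RLE, upper quartile and total count scaling. Their summed level was 3734, 3841 and 4089 CPM in vehicle, highest in vehicle 3, and 3049, 2902 and 2771 CPM with TGFβ. BUB1, a spindle checkpoint kinase, stood at 191, 199.7 and 247 CPM in vehicle and 132, 129 and 120.1 CPM with TGFβ (-0.74 ± 0.08). KIF20A, a kinesin of cell division, fell by 0.56 and MKI67, the Ki-67 gene, by 0.54. A ratio within a library does not depend on scaling, and the summed mitosis level was 62.0, 63.9 and 70.6% of the summed level of the 48 genes in vehicle. It was 55.4, 52.8 and 48.9% with TGFβ, 68.0, 68.1 and 70.6% with Aramchol, and 54.8, 58.0 and 50.8% with both. Each of the 6 libraries with TGFβ lay below each of the 6 without it. With Aramchol present TGFβ lowered 19 of the 20, against 14.2% of all tested genes. Aramchol added to TGFβ raised 1, CENPA, against 0.89% of all tested genes.

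The mitosis list also differed in its promoters: 14 of 16 on file held CCAAT (87.5%), 8 held the CHR word (50%) and 2 an E2F word (12.5%). Of 12 genes of the S phase checkpoint and fork repair 5 fell with TGFβ (41.7%), against 18.1% of all tested genes. They were led by FANCD2 (-0.52), EXO1 (-0.29) and FANCI (-0.24). Of 29 other replication factors 7 fell (24.1%) and 2 rose (6.9%), beside 18.1 and 18.9% of all tested genes. TOP2A, the topoisomerase that untangles sister chromatids, fell by 0.44, CDC7, the kinase that fires origins, by 0.34 and TICRR, which helps to load CDC45, by 0.28. Of 12 other genes of nucleotide metabolism 5 fell (41.7%) and 4 rose (33.3%), beside 18.1 and 18.9% of all tested genes. SHMT1, a serine hydroxymethyltransferase, fell by 0.41, whereas CAD, which starts pyrimidine synthesis, rose by 0.56 and CTPS1, the CTP synthase, by 0.33.

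**Figure D4:**
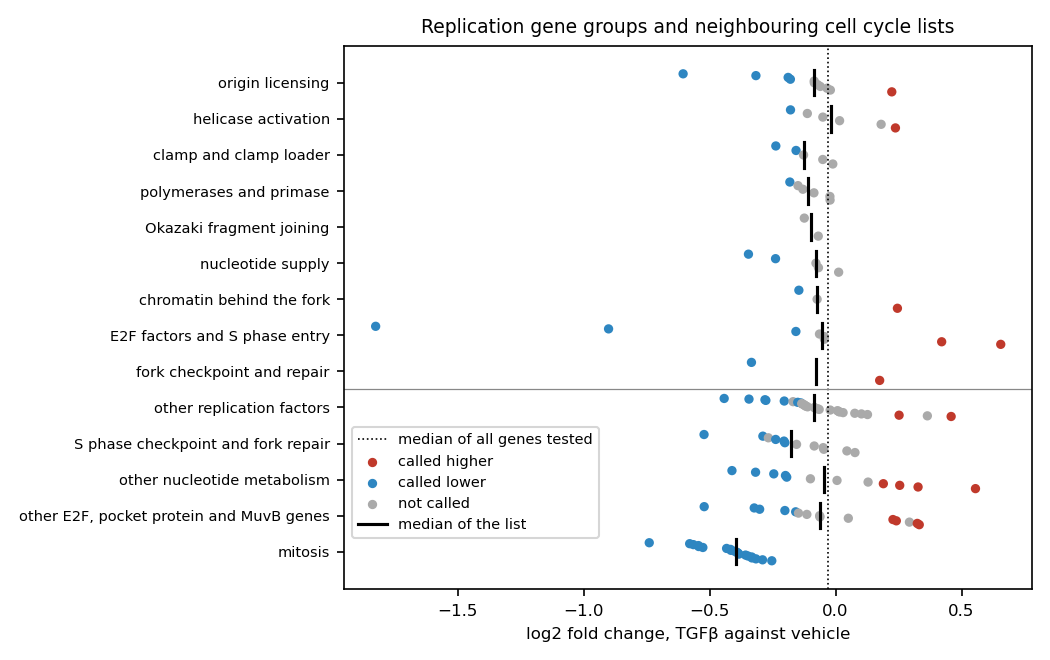
Each point is 1 gene, placed by its log2 fold change for TGFβ against vehicle, with the 9 role groups of the 48 genes above the line and 5 of the 6 other lists below it. Bars mark list medians and the dotted line the median of all tested genes, -0.03; all 20 mitosis genes and 35 of the 48 replication genes lie left of it.

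The regulators upstream of E2F moved in both directions. Of 15 G1 cyclins, kinases and inhibitors 6 rose (40%) and 3 fell (20%), beside 18.9 and 18.1% of all tested genes. CDKN2B, an inhibitor of CDK4 and CDK6, stood at 44.6 ± 9.06 CPM in vehicle and 192.7 ± 1.07 CPM with TGFβ (SD, n = 3), a log2 change of 2.11 ± 0.10. CDKN1A, the p21 gene, went from 206, 196 and 149 CPM to 735, 727 and 842 CPM (2.06 ± 0.11). CDK6 itself rose by 0.86. Of 15 other E2F, pocket protein and MuvB genes 4 rose (26.7%) and 5 fell (33.3%), beside 18.9 and 18.1% of all tested genes. Among them were RBL1, a pocket protein (-0.52), E2F3, an activating E2F (0.33), and E2F4, which works with pocket proteins as a repressor (0.32). So E2F2 and E2F1 fell while E2F3 rose among the activators. With Aramchol alone, edgeR and DESeq2 called 0 of the 103 genes, and 12 had an unadjusted p under 0.05 in edgeR, the same share as the 11.7% of all tested genes. With only the libraries numbered 1 and 2, edgeR called 7 of them higher (6.8%) and 3 lower (2.91%), against 3.23 and 3.86% of all genes tested there.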

How the data were processed

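Whole RNA-seq counts per gene in 12 libraries were used as deposited. The submitters' processing notes name STAR 2.7.9a, featureCounts of Subread and the build GRCh38. The sources used here give neither strand setting nor annotation release, and counts carry no molecular identifiers. Gene coordinates and exon lengths are those of the deposited table, and 62625 of 62703 IDs had a symbol. Genes kept by filterByExpr were scaled by TMM (factors 0.930 to 1.09) and fitted in edgeR 4.0.16 (R 4.3.3) with quasi-likelihood tests and 1 mean per group over all 12 libraries. Calls use a Benjamini-Hochberg adjusted p under 0.05 over 21567 genes, and the biological coefficient of variation was 8.90%. Errors on log2 fold changes are SE and those on CPM are SD of 3 libraries. A count of 3, taken as the floor, is 0.0427 to 0.0574 CPM. The procedure was run on simulated counts with the same spread for every gene and no shift of libraries numbered 3. That run therefore does not measure error rates in these data. No 2 libraries of a group were duplicates.

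The 48 members, the lists and the tests were chosen with earlier results of these data known. Per-library values were given for the 2 members of each role group with the smallest p for TGFβ against vehicle (1 in groups of 2 or 3), the member with the largest p in groups over 3, and members called for Aramchol against vehicle, TGFβ + Aramchol against TGFβ or the interaction; those of CCNE1, E2F7, POLA2 and CDC6 were added after their values were seen, as were the library values of BUB1 and CDKN1A, 2 of the genes named by smallest p. Alternatives were scaling by RLE or by the upper quartile, testing unfiltered or more strictly filtered counts, DESeq2 1.42.0, a replicate block, a term for number 3, numbers 1 and 2 alone, fits to the compared groups alone, omission of each library, and total count scaling (added after seeing the data). Not tested were 20616 genes with no count and the others under the filter.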

Additional observations from a re-analysis of the deposited data

How the results depend on the processing

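Scaling, the filter on low counts and single libraries moved the counts of members. Under scaling by total counts, TGFβ against vehicle gave 2 members higher and 39 lower with a median of -0.25, where the all-gene median was -0.21 and the lower share of all calls rose from 49.0 to 74.7%. There MCM10 changed sign to -0.16, TYMS to -0.17 and CLSPN to -0.0036. Under the same scaling TGFβ + Aramchol against Aramchol gave 1 higher and 25 lower (median -0.15), TGFβ + Aramchol against vehicle 2 and 26 (median -0.15), and the medians were 0.12 against TGFβ and 0.0947 for the interaction. Upper quartile scaling gave medians of -0.11 for TGFβ against vehicle, -0.052 for TGFβ + Aramchol against Aramchol and -0.0659 against vehicle, the last with 18 lower.

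Without the filter, 9 members were lower for TGFβ against vehicle and 7 for TGFβ + Aramchol against Aramchol. The all-gene shares called lower there were 8.57 and 7.12%. For Aramchol against vehicle, 1 member, POLA2, was lower with no filter, with the stricter filter, with DESeq2 and with a term for number 3. The all-gene shares called lower were 0.627, 0.25, 0.909 and 1.13% in that order. With the libraries numbered 1 and 2 alone, 2 members were lower for Aramchol against vehicle. In the same libraries TGFβ + Aramchol against TGFβ gave 4 higher and 1 lower, and against vehicle 17 lower with a median of -0.0602. The causes were not tested. The interaction with only the groups compared is the same fit over all 4 groups and has no value of its own.

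With each library left out in turn, TGFβ against vehicle gave 4 to 6 members higher and 9 (without TGFβ 2) to 18 lower. The median was -0.11 to -0.0694, and all-gene shares were 16 to 18.4% higher and 14.5 to 17.5% lower. Aramchol against vehicle gave 0 higher, 0 to 1 lower and a median of 0.005 to 0.0181. All-gene shares were 0.0675 to 0.997% higher and 0.00448 to 1.75% lower. TGFβ + Aramchol against TGFβ gave 0 to 3 higher, 0 lower and 0.0376 to 0.0772 (all genes 0.0985 to 2.23% and 0.135 to 3.2%). Against Aramchol it gave 4 to 5 higher, 7 to 13 lower and -0.04 to -0.01 (all genes 12.9 to 17.4% and 10.8 to 15.7%). Against vehicle it gave 4 to 5, 10 to 12 and -0.04 to 0.01 (all genes 15.2 to 17.8% and 13.6 to 16.4%). The interaction gave 0 in each and 0.03 to 0.06 (all genes 0 to 0.0135% and 0 to 0.018%).

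The replicate block, with the number as a term, gave 7 members higher and 16 lower for TGFβ against vehicle (all genes 21.2 and 20.9%). For Aramchol against vehicle it gave 0 and 1 (POLA2, edgeR adjusted p = 0.019), beside 1.21 and 0.941% of all genes. For TGFβ + Aramchol it gave 3 and 0 against TGFβ (2.99 and 4.06%) and 5 and 12 against Aramchol (18.6 and 17%). Against vehicle TGFβ + Aramchol gave 5 and 10 (20.9 and 19.5%), and the interaction gave 0 (0.0325 and 0.0742%). The labels do not say that a number marks a shared batch. Deviations of libraries with the same number correlated across genes by 0.007 to 0.221, over 0.1 in 7 of 18 pairs. All 6 pairs of number 3 libraries were among the 7 (0.111 to 0.221). Over the 48 members the correlations were -0.166 to 0.609, over 0.1 in 14 of 18 pairs. Not every pair was over 0.1 by either measure, so the numbers were not taken to pair the samples.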

Other observations

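Other genes of nucleotide metabolism moved in both directions with TGFβ, and those named here were chosen after their values were seen. PAICS and GART, of purine synthesis, rose by 0.25 ± 0.06 and 0.19 ± 0.05 log2 (SE), beside CAD and CTPS1 of pyrimidine synthesis. DTYMK and DCK, which serve deoxynucleotide supply, fell by 0.19 and 0.20, all called by edgeR with Benjamini-Hochberg adjustment. The rises are small enough that scaling by total counts, which moves the all-gene median by -0.18, bears on them.

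The kinase inhibitors did not share a direction. CDKN2C, the p18 gene, stood at 61.6, 57.5 and 80.3 CPM in vehicle and 31.3, 30.8 and 31.2 CPM with TGFβ (-1.10 ± 0.11, edgeR adjusted p = 6.5e-07), while CDKN2B rose. CDKN1B, the p27 gene, fell by 0.47 and CDKN2A rose by 0.82. With both agents CDKN2C stood at 31.6, 31.3 and 35.7 CPM.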
